A study of Arabidopsis thaliana with 2 samples.

Results

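The photosystem II antenna genes described here are 10 LHCB genes of Arabidopsis, chosen by locus code out of 27432 protein-coding genes on the 5 nuclear chromosomes. They are LHCB1.1 to LHCB1.5 (AT1G29920, AT1G29910, AT1G29930, AT2G34430 and AT2G34420), LHCB2.1 and LHCB2.2 (AT2G05100 and AT2G05070), LHCB4.1 (AT5G01530), LHCB5 (AT4G10340) and LHCB6 (AT1G15820). A gene counted as having a peak when a peak of the deposited list overlapped the gene or the 1000 bp to either side of it. By that measure 5 of the 10 genes had a peak (50%), against 3826 of all 27432 protein-coding genes (13.9%). The 10 genes were chosen with earlier results of these data known, and the difference was not tested. Of 11 other LHCB and LHCA genes, 2 had a peak (18.2%).

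The measurement was a chromatin immunoprecipitation followed by sequencing (ChIP-seq) of MYB3R3, made in 9-day-old Col-0 plants, harvested whole, with MYB3R3 expressed as a fusion to green fluorescent protein (GFP). There was 1 ChIP library, precipitated with an antibody against GFP, and 1 input DNA library of the same genotype, which was not analysed here. Seedlings grew in liquid medium with sucrose under continuous light and had no treatment. The sources used here do not state the promoter of the fusion gene, the number of transgenic lines or the state of the endogenous MYB3R3 gene. The study asks which genes MYB3R3 binds. A single ChIP library has no replicates, so the counts and scores below describe this list of peaks and carry no error or test.

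The ChIP library gave 2931 peaks, each with a score from the authors, for which the sources used here state no formula. Scores ran from 4.13 to 749.6, with a median of 17.4 and quartiles of 11.98 and 28.5. Peak widths ran from 196 to 1495 bp, with a median of 275 bp. The number of reads behind a peak is unknown from the list. A whole seedling mixes dividing and differentiated cells, so a weak peak in all cells and a strong one in a few cannot be told apart.

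LHCB proteins bind chlorophyll a and b and collect light for photosystem II. LHCB1 and LHCB2, with LHCB3, form the trimers of the major antenna complex, LHCII, while LHCB4 (CP29), LHCB5 (CP26) and LHCB6 (CP24) are the monomeric minor antennae that sit between the trimers and the reaction centre. LHCB genes are among the most strongly expressed nuclear genes of green tissue, are induced by light and by the GLK transcription factors, and follow the circadian clock. MYB3R3 belongs to a small MYB family known for acting on genes of mitosis and cytokinesis, and with MYB3R1 and MYB3R5 it is known as a repressor of such genes.

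**Figure D1:**
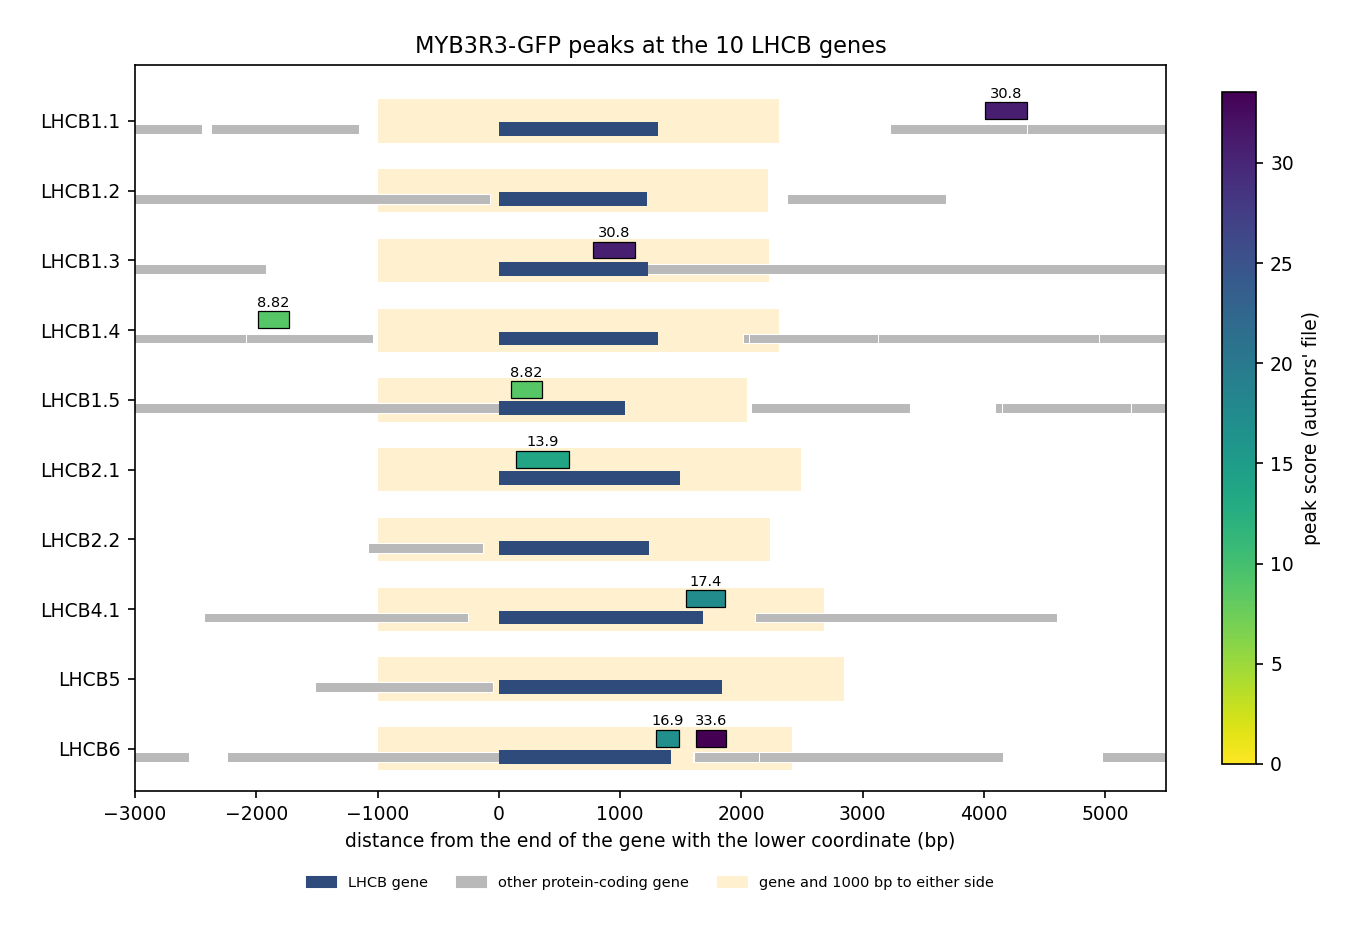
Each row shows 1 LHCB gene (dark blue bar), its neighbours (grey bars), the gene with 1000 bp to either side (pale band) and the MYB3R3-GFP peaks (boxes coloured and labelled by score), plotted by distance in bp from the end of the LHCB gene with the lower coordinate. LHCB1.3, LHCB1.5, LHCB2.1, LHCB4.1 and LHCB6 have a peak in the band, and LHCB1.4 has its nearest peak 1728 bp away.

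Of the 5 LHCB1 genes, which encode the most abundant LHCII protein, 2 had a peak. LHCB1.1, LHCB1.2 and LHCB1.3 lie side by side on chromosome 1, in the order LHCB1.2, LHCB1.1, LHCB1.3, and the 3 genes had 1 peak between them. It lay at LHCB1.3 (CAB1 in the gene table; chr1:10478665-10479007, TAIR10), with a score of 30.8 and rank 681 of the 2931 peaks, above the upper quartile of all scores. All 343 bp of this peak lay inside LHCB1.3 and covered 27.9% of the gene. The peak lay towards the end of LHCB1.3 that overlaps NRPA2, the gene of a core subunit of RNA polymerase I, and shared 1 bp with NRPA2. Its midpoint was 171 bp from the end of NRPA2 and 278 bp from that of LHCB1.3, so the nearest gene end was that of NRPA2. Peaks and genes come from builds of different names, and the check of their match does not resolve offsets of about 100 bp, so smaller overlaps and distances here and below are those of the 2 files as they stand.

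LHCB1.1 lay 2696 bp from this peak and LHCB1.2 lay 5163 bp from it, and no other peak lay within 10000 bp of either gene. No peak at the array was therefore shared between LHCB1 genes. Of all protein-coding genes, 20.6% had a peak as near as that of LHCB1.1 and 29.99% had one as near as that of LHCB1.2.

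LHCB1.4 and LHCB1.5 form the other LHCB1 pair, 1039 bp apart on chromosome 2, and again the pair had 1 peak. It lay inside LHCB1.5 (chr2:14522621-14522879), with a score of 8.82 and rank 2662, below the lower quartile of all scores. This was the lowest score among the peaks at the 10 genes. The peak covered 24.8% of LHCB1.5 and shared 2 bp with RWA3, a gene of cell wall acetylation that overlaps the same end. Its midpoint was 128 bp from the end of RWA3 and 226 bp from that of LHCB1.5. The noncoding gene AT2G08665 also covered all 259 bp of the peak.

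LHCB1.4 was the gene just outside the 1000 bp limit, since the LHCB1.5 peak ended 1728 bp from it. With 2000 bp to either side, the LHCB1.4 and LHCB1.5 genes shared that peak and 6 of the 10 LHCB genes had one, against 17.8% of all protein-coding genes. At that width LHCB1.1 and LHCB1.2 still had none. The LHCB1 genes, and likewise LHCB2.1 and LHCB2.2, are close copies of each other. The sources used here do not state how reads that match several places were treated, and its part in which copies carried a peak was not tested.

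The 2 LHCB2 genes, whose protein is the LHCII subunit known for its phosphorylation in state transitions, differed in the same way. LHCB2.1 had a peak of 437 bp (chr2:1823131-1823567) with a score of 13.9 and rank 1904. This was the widest peak at the 10 genes and lay wholly inside LHCB2.1, with its midpoint 359 bp from the nearer gene end. It touched no other protein-coding gene, where a peak is said to touch every gene that it overlaps or that lies within 1000 bp of it. Of the 2931 peaks, 1265 (43.2%) touched 1 gene. LHCB2.2 had the same peak as its nearest, at a distance of 22659 bp, and 68.2% of all protein-coding genes had a peak as near.

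Among the minor antennae, LHCB4.1 and LHCB6 had peaks and LHCB5 had none. LHCB4.1 had a peak with a score of 17.4 and rank 1464 (chr5:210406-210729), which was the median of all scores. The peak lay across the end of the gene, with 143 bp inside and 181 bp outside, and its midpoint was 19 bp from that end. The next gene on that side, the lectin receptor kinase gene LECRKA4.1, began 250 bp from the peak.

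LHCB6 was the LHCB gene with 2 peaks, and 431 of the 3826 protein-coding genes with any peak had 2 or more. The first lay across the end of LHCB6 (chr1:5447755-5447951), had a score of 16.9 and rank 1499, and placed its midpoint 27 bp from that end. The other lay 204 bp outside LHCB6 (chr1:5448084-5448332), with a score of 33.6 and rank 611. This was the highest score at any of the 10 genes, and the peak lay wholly inside the neighbouring genes AT1G15830 and AT1G15825. Its midpoint was 328 bp from LHCB6 and 135 bp from the end of AT1G15825. The highest score of a peak that overlapped an LHCB gene itself was therefore the 30.8 of LHCB1.3.

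LHCB5 stood farthest from any peak. Its nearest one lay 32415 bp away, with a score of 40.6, and 78.2% of all protein-coding genes had a peak as near. LHCB5 and LHCB2.2 were the 2 genes of the 10 with no peak within 10000 bp.

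**Figure D2:**
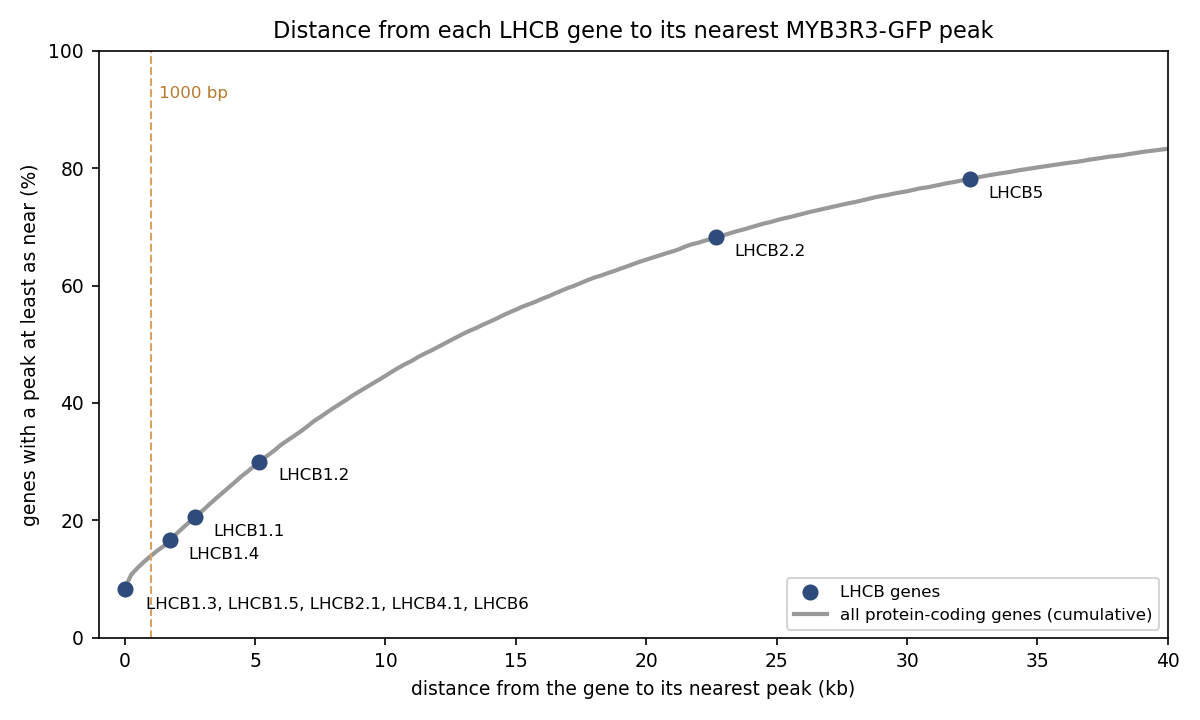
The horizontal axis gives the distance in kb from a gene to its nearest MYB3R3-GFP peak and the vertical axis the percentage of all protein-coding genes with a peak at least as near; points are the 10 LHCB genes and the line is all 27432 genes. The 5 genes that a peak overlaps sit at 0, LHCB1.4, LHCB1.1 and LHCB1.2 follow within 5163 bp, and LHCB2.2 and LHCB5 lie beyond 22000 bp.

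The 6 peaks at LHCB genes had scores of 8.82, 13.9, 16.9, 17.4, 30.8 and 33.6, with a median of 17.1, close to the median of 17.4 for all peaks. Of the 6, 2 lay above the upper quartile of all scores and 1 below the lower quartile. The median of the highest score per gene was 17.4 for the 5 LHCB genes with a peak and 18.5 for all 3826 genes with one. On the same scale MYB3R3 itself had a peak of 124.9 and KNOLLE, the syntaxin of the cell plate in cytokinesis, one of 159.2. The MYB3R3 peak also touched AT3G09360. The plants carried MYB3R3 as a GFP fusion gene too, and the part of that gene in this score was not tested. The LHCB peaks were 197 to 437 bp wide, with a median of 291.5 bp.

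**Figure D3:**
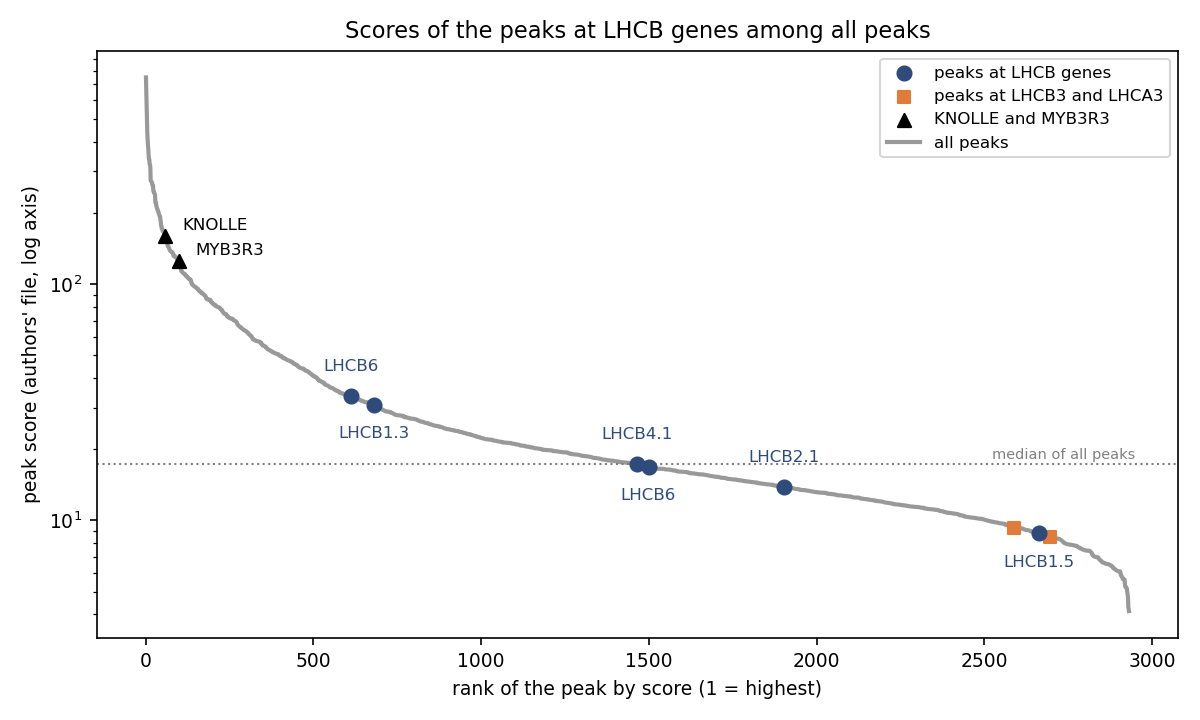
All 2931 peaks are drawn by rank (horizontal axis) and score (vertical axis, log scale, the authors' values), with the 6 peaks at LHCB genes, the peaks at LHCB3 and LHCA3, and the highest peaks at KNOLLE and MYB3R3. The LHCB peaks lie between ranks 611 and 2662, below KNOLLE at 59 and MYB3R3 at 98.

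The peaks at the major antenna genes with one lay inside the gene. Those at the minor antenna genes with one lay at or beyond a gene end. This difference rests on few genes and was not tested, and the share of all peaks wholly inside a gene was not counted. All 5 genes also had a peak in the windows that reach 200 bp into the gene from both ends. Of all peak midpoints, 77.3% lay within 500 bp of a gene end, as did the midpoints given here. At LHCB1.3, LHCB1.5 and LHCB2.1, the genes of the major antenna, each peak lay wholly inside the gene and covered 24.8 to 29.3% of it, with its midpoint 226 to 359 bp from the nearer end. The LHCB1.3 and LHCB1.5 midpoints were nearer to the end of an overlapping neighbour, 171 bp from NRPA2 and 128 bp from RWA3. At LHCB4.1 and LHCB6, the genes of minor antennae, a peak lay across a gene end and covered 8.50 and 8.88% of the gene, with the outer LHCB6 peak off the gene. Strand was not used here, so no end is called a transcription start or end. LHCB genes are short, with lengths from 1045 to 1843 bp and a median of 1313 bp, against a median of 2078 bp for all protein-coding genes. Among the 6817 protein-coding genes in the same range of lengths, 11.2% had a peak within 1000 bp.

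The count of 5 LHCB genes was the same in the narrower windows that were tried. A peak overlapped the gene itself in 5 of the 10 cases, against 8.39% of all protein-coding genes, and with 500 bp to either side the count was again 5, against 11.9%. With windows around both gene ends, reaching 1000 bp outward and 200 bp into the gene, it was 5, against 13.1%. With the peak midpoint, or at least 50% of the peak, inside the window it was 5, against 13.4% in both cases. These settings held the same 5 genes. Since a peak overlapped each of the 5 genes itself, the 500 bp, midpoint and 50% rules had to keep them.

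Stricter rules left fewer LHCB genes. The higher-scoring 1467 peaks left 3 (LHCB1.3, LHCB4.1 and LHCB6), against 7.58% of all genes, and the higher-scoring 733 peaks left 2 (LHCB1.3 and LHCB6), against 4.13%. Where each peak went to the nearest gene end alone, 3 remained (LHCB2.1, LHCB4.1 and LHCB6), against 9.69%, since the peaks at LHCB1.3 and LHCB1.5 went to NRPA2 and RWA3. With peaks that touched 1 gene, LHCB2.1 alone had a peak, against 4.22% of all genes.

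Of 11 other LHCB and LHCA genes of the light-harvesting family, 2 had a peak (18.2%), near the 13.9% of all protein-coding genes, and the difference from the 10 genes was not tested. LHCB3, the remaining subunit of LHCII trimers, had a peak with a score of 9.33 inside the gene, which also had MRE11, a DNA repair gene, and ATM2 within 1000 bp. LHCA3, an antenna protein of photosystem I, had a peak with a score of 8.51 at a distance of 410 bp. LHCB2.3, LHCB4.2 and LHCB4.3, the close relatives of LHCB2.1 and LHCB4.1, had no peak within 1000 bp and lay 23031, 4099 and 4445 bp from one.

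The other lists, of photosynthesis genes and of regulators of LHCB expression, had shares between 28.6 and 44.4%, against 13.9% of all protein-coding genes. These lists were chosen with earlier results known, and the differences were not tested. Nuclear photosystem II genes had a peak in 3 of 10 cases. PSBQ1 (an extrinsic protein of the oxygen-evolving complex) led with a score of 92.1, at a peak that also touched the spindle kinesin gene ATK1. PSBY and PSBR, small proteins of photosystem II, followed with 8.17 and 7.94. Nuclear photosystem I genes had a peak in 4 of 12 cases, with scores of 86.0 for PSAE2, 22.8 for PSAF, 10.5 for PSAD1 and 5.63 for PSAO. Chlorophyll synthesis genes had one in 6 of 14 cases, and the highest scores were 48.0 for CHLM, 17.45 for CHLG, 12.9 for PORC and 11.2 for CHLI1.

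Genes that handle or control LHCII completed the comparison. Of 7 genes for LHCII import and phosphorylation, 2 had a peak. TAP38, the phosphatase of state transitions, had a peak with a score of 47.7, and STN8, a thylakoid protein kinase, had one of 19.9. STN7, the LHCII kinase, and the genes of the import particle had none within 1000 bp. Of 9 regulators of LHCB expression, 4 had a peak, at scores of 10.8 for PIF4, 10.2 for CCA1, 9.30 for HY5 and 8.63 for PIF3. All 4 scores lay below the lower quartile of the peaks, and GLK1 and GLK2 had no peak within 1000 bp.

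**Figure D4:**
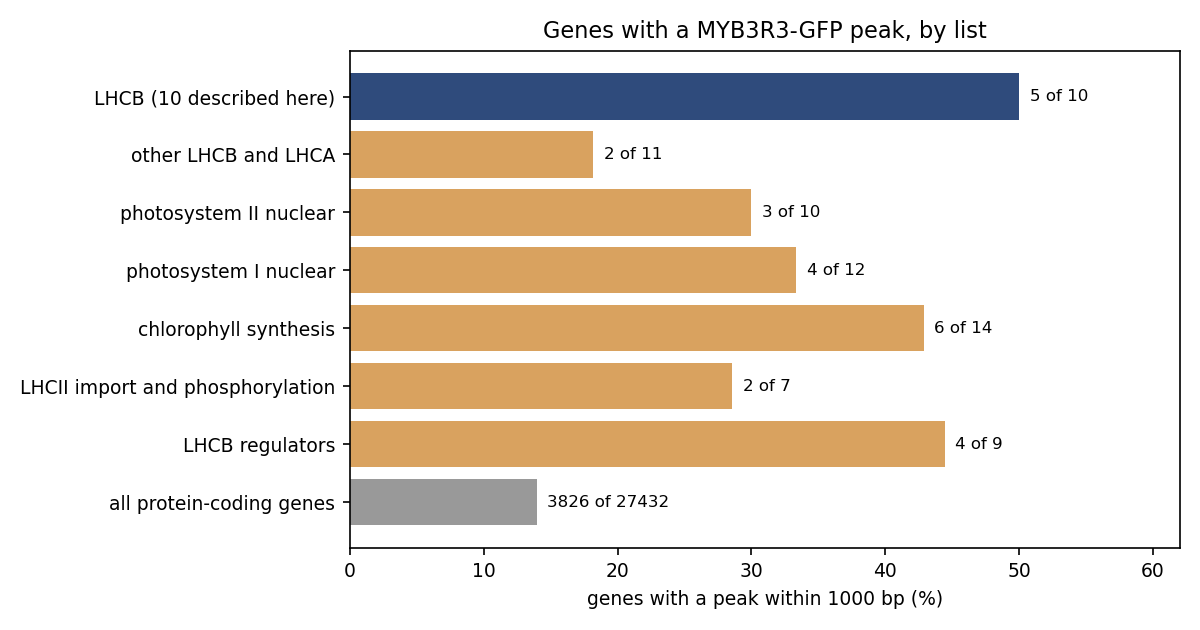
Bars give the percentage of genes in each list with a MYB3R3-GFP peak in the gene or within 1000 bp of it, with the counts beside them. The 10 LHCB genes stand at 50%, the other lists of photosynthesis genes and LHCB regulators between 18.2 and 44.4%, and all protein-coding genes at 13.9%. The genes and lists were chosen with earlier results of these data known.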

How the data were processed

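The authors deposited 1 peak list of the ChIP library, with a chromosome, start, end and score for each peak; the score is the authors' value and was used to rank and filter peaks within the list. The other deposited values are the start and end in bp, of which the start was read as counting from 0. Bowtie (0.12.7), SAMtools (0.1.18), MACS2 and the build TAIR10 are named, per the submitters' processing notes. For the role of each tool, the peak threshold, the use of the input and the read depth, the sources used here give nothing.

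Gene names and positions came from a RefSeq table of TAIR10.1. All gene lists were found in it. Since the build's name differs, peaks were moved along the chromosomes in steps of 100 bp. Unmoved, 77.3% of midpoints lay within 500 bp of a gene end, and after moves of 4000 to 5000 bp the median share was 40.7%. The best move was 0 bp over all chromosomes together and for chromosomes 1 and 4, -100 bp for chromosomes 2 and 5, and 100 bp for chromosome 3, so the check does not resolve offsets of about 100 bp. Distances to genes rest on that check, and gene coordinates are not printed. Distances are from the nearest edge of a peak.

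The members, the gene lists and the alternatives were chosen with earlier results of these data known. Named genes were all members, the genes that share their peaks, other LHC genes with a peak, up to 4 highest-scoring genes of each other list, and KNOLLE and MYB3R3. The close relatives without a peak, the listed controllers without one, and the genes in the closing observations were chosen as examples with their values known. The overlap count was tested on simulated peaks at 200 genes. Motif counts planned for promoters were not run, since no sequence was used here. Python 3.11.15, pandas 2.3.3, NumPy 2.4.6 and matplotlib 3.10.9 were used.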

Additional observations from a re-analysis of the deposited data

How the results depend on the processing

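The 10 alternatives were other windows, peak thresholds, overlap rules and ways to give a peak to a gene. The number of LHCB genes with a peak stayed at 5 or 6 in 6 of them. Since a peak overlapped each of the 5 genes itself, the 500 bp, 2000 bp, midpoint and 50% rules could not give fewer. The number was 3 with the higher-scoring 1467 peaks, 2 with the higher-scoring 733 peaks, 3 where a peak went to the nearest gene end alone and 1 with peaks that touch 1 gene. The number of distinct peaks was 3, 2, 3 and 1 in these settings. The settings on score and on peaks that touch 1 gene use fewer peaks by construction, 1467, 733 and 1265 of the 2931. The highest score was 30.8 with the gene body alone, 17.4 with the nearest gene end and 13.9 with peaks that touch 1 gene. Of the other LHC genes, 1 had a peak with the gene body alone (LHCB3) and 1 with windows at gene ends (LHCA3). With 1467 peaks, 733 peaks, the nearest gene end or peaks that touch 1 gene, 0 did. The background over genes of like length was added after seeing the data.

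No paired analysis was possible because a single ChIP library was compared with nothing else, and for that reason no replicate was left out. Without the read depth, binding too weak for the authors' threshold cannot be seen here.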

Other observations

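The genes in these paragraphs were chosen after their values were seen, and nothing in them was tested. The highest peaks at photosynthesis genes outside the light-harvesting family were each shared with a neighbour, in that a further protein-coding gene overlapped the peak or lay within 1000 bp of it, which is what touching means here. Of all 2931 peaks, 1462 (49.9%) touched 2 or more protein-coding genes and 204 touched none. The PSBQ1 peak of 92.1 (rank 166) also touched ATK1, a kinesin of the mitotic spindle. The PSAE2 peak of 86.0 (rank 191) also touched AT2G20250 and AT2G20270. The CHLM peak of 48.0 also touched AT4G25070, and the TAP38 peak of 47.7 also touched AT4G27810. The peak of KNOLLE, at 159.2, touched NPQ1, the violaxanthin de-epoxidase gene of photoprotection. The PSBR peak of 7.94 touched RECA1, a recombinase gene. Of the 4 regulators of LHCB expression with a peak, PIF3 and PIF4 had peaks that touched no other protein-coding gene.

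Of 5 pairs of duplicated photosystem genes in the lists, 3 had a peak at 1 copy and 2 (PSBO1 with PSBO2, and PSAH1 with PSAH2) had none at either. Over all protein-coding genes, taken singly, 13.9% had a peak within 1000 bp. PSAD1 had 2 peaks, the higher at 10.5, and PSAD2 lay 14660 bp from its nearest peak. PSAE2 had its peak of 86.0, and PSAE1 lay 9614 bp from one. PSBQ1 had its peak of 92.1, while PSBQ2 lay 1713 bp from a peak of 98.8. The protochlorophyllide reductase genes PORC and PORB had peaks of 12.9 and 6.09, and PORA lay 24968 bp from one.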
